A study of Mus musculus with 20 samples.

Results

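Skeletal muscle genes were followed through 20 RNA-seq libraries of whole mouse dorsal root ganglia (DRG). They were 40 listed genes of the sarcomere, muscle calcium handling, the neuromuscular receptor and the myogenic program, among 37620 identifiers in the expression table. The list was drawn up by name and role, with earlier results of these data known. Every library came from C57Bl/6 embryos at E18.5, late in gestation, with no transgene or treatment given in the labels. Each of 10 embryos (males M1, M3, M5, M7 and M8, females F3, F7, F8, F9 and F10) gave one lumbar library (ganglia L4 and L5) and one sacral library (L6 and S1), so that lumbar males, sacral males, lumbar females and sacral females each held 5 libraries. Ganglia were dissected whole and were not sorted, and the sources used here do not say how attached tissue was trimmed. The question put to the design was whether the spinal levels, or the sexes, differed. Here the muscle genes serve as a measure of muscle RNA in the dissections.

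In skeletal muscle, thin filaments of actin, tropomyosin and troponin slide along thick filaments of myosin, and titin and nebulin set the layout of the sarcomere. Depolarisation by the acetylcholine receptor of the motor endplate opens the calcium store through the dihydropyridine and ryanodine receptors, and the pump Atp2a1 refills it. Before birth, muscle fibres use embryonic and neonatal myosin heavy chains and the fetal receptor gamma subunit, which are replaced later by adult forms. Sensory ganglia contain no muscle fibres of their own, while axial muscles lie next to them.

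The 40 symbols matched 41 identifiers, since Tnnc1, the slow troponin C, had 2 overlapping entries on the same strand with the same reads in the libraries at both ends of their range, and it was counted once. Of the 40 genes, 24 passed the filter (a group mean of at least 1 RPKM, which is reads scaled by gene length and library size, taken on the log2 scale, in at least 1 of 4 groups), and 16 did not. Among all identifiers, 14529 passed. The 16 genes below the filter were the 3 receptor subunits, the 4 myogenic factors, Myh7, Myl4, Mybpc2, Actn3, Smpx, Trim63, Ryr1, Cacna1s and Cacng1. The libraries held between 19606265 and 39678967 reads in genes, of which mitochondrial rRNA took between 17.8% and 61.1%. Xist and the Y genes matched the labelled sex in 20 of 20 libraries, and all 12 genes of a sensory neuron list passed the filter, as did all 10 of a Schwann and satellite glia list.

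Muscle RNA was found in every library, at amounts that differed by an order of magnitude between dissections. The summed level of the 40 genes had a median of 97.8 RPKM over the 20 libraries and ran from 39.2 RPKM in sacral M8 to 672 RPKM in lumbar F8. Next came sacral M7 with 389 RPKM, lumbar F3 with 335 RPKM and lumbar F7 with 180 RPKM. Only one library of each of donors F8, M7 and F3 stood high, with 154 RPKM in sacral F8, 77.2 RPKM in lumbar M7 and 109 RPKM in sacral F3. As a share of reads outside mitochondrial rRNA, the genes took 0.592% in sacral M7 (95% Wilson interval 0.588 to 0.595%) and 0.025% in sacral M8 (0.0242 to 0.0257%). These intervals cover counting error only, and amplified reads are not independent molecules. By share of reads lumbar F8, at 0.468%, lay below sacral M7, the reverse of their order in summed RPKM. The long gene Ttn (titin) held 71545 of the 111800 reads of the 40 genes in sacral M7, and 42514 of 105433 in lumbar F8. In bulk samples, fewer muscle cells and less RNA per muscle cell cannot be told apart.

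**Figure D1:**
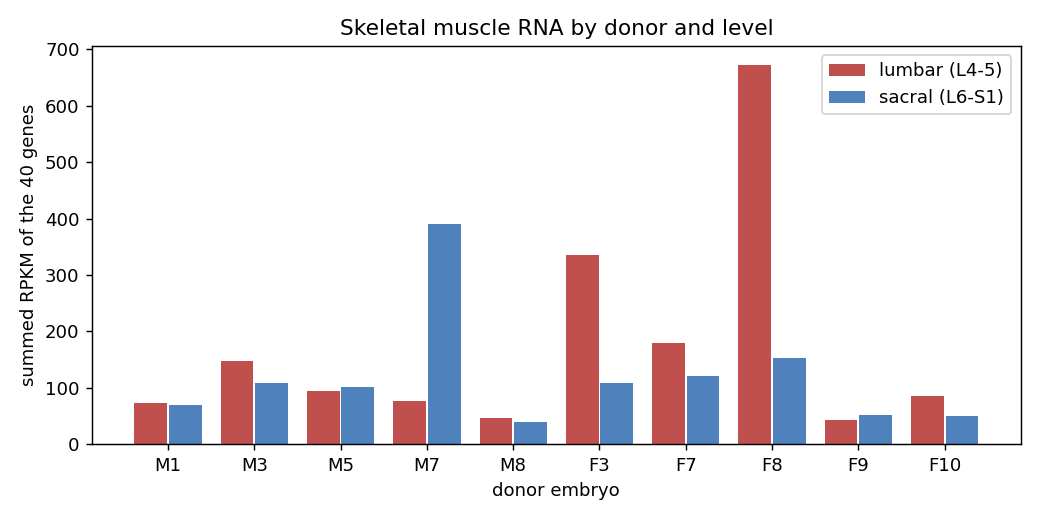
Bars give the summed level of the 40 skeletal muscle genes (RPKM, linear axis from 0) in the lumbar and the sacral library of each of 10 donor embryos, 1 library a bar. Lumbar F8 (672 RPKM), sacral M7 (389 RPKM) and lumbar F3 (335 RPKM) stand above the other 17 libraries.

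The genes varied together from library to library. Among the 24 genes tested, 15 had their highest value in lumbar F8 and 9 in sacral M7, and 22 had lumbar F3 among their top 3 libraries. At the low end, 9 had their lowest value in sacral M8, 6 in sacral F9, 4 in lumbar F9, 3 in lumbar M8 and 1 each in lumbar M5 and sacral F10. The SD over 20 libraries had a median of 1.23 on the log2 scale for the 24 genes, against 0.39 for all genes tested, and 23 of the 24 lay in the upper 10% of all genes. Without lumbar F8, sacral M7 and lumbar F3, the median SD of the 24 was 0.92 against 0.38 for all genes, and 17 of the 24 lay in the upper 10%.

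**Figure D2:**
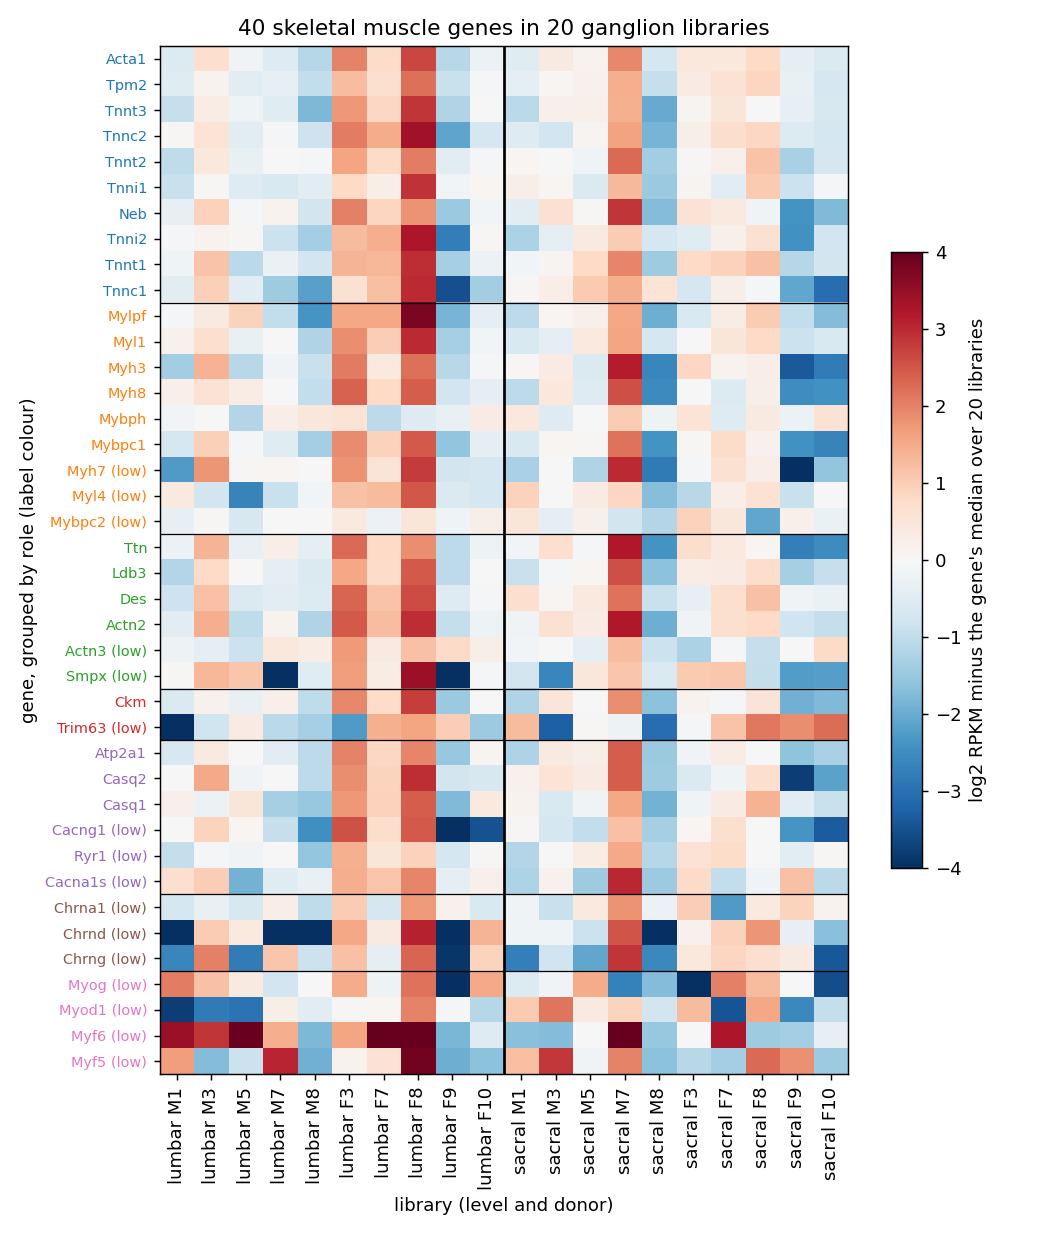
Each cell gives log2 RPKM minus the median of that gene over 20 libraries (colour scale from -4 to 4) for the 40 genes in rows, grouped by role, and the 20 libraries in columns, lumbar left and sacral right of the line. Genes marked low did not pass the filter. Lumbar F3, lumbar F8 and sacral M7 are red in nearly all filament genes, while Mybph and Mybpc2 do not show all 3 columns and Trim63 and the myogenic factors vary widely from library to library.

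Acta1 (ENSMUSG00000031972), the skeletal alpha actin, was the most abundant member. Its log2 RPKM was 3.81, 5.04, 4.23, 3.86 and 3.21 in lumbar males M1, M3, M5, M7 and M8, and 3.89, 4.71, 4.49, 6.28 and 3.65 in the sacral libraries of the same embryos. In females F3, F7, F8, F9 and F10 it was 6.36, 5.10, 7.04, 3.27 and 4.12 in lumbar and 4.77, 4.78, 5.16, 3.98 and 3.79 in sacral ganglia. Lumbar F8, lumbar F3 and sacral M7 were the 3 highest, and the ranges of the 4 groups overlapped. In reads, Acta1 had between 446 and 7889 per library. The gene lies at chr8:126415669-126418651 (mm9, minus strand), where Gm20388 overlaps it on the other strand.

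Other thin filament genes moved with actin. Tpm2 averaged 2.41 ± 0.40, 2.92 ± 0.88, 3.45 ± 1.19 and 2.99 ± 0.64 in lumbar males, sacral males, lumbar females and sacral females (log2 RPKM, SD, n = 5), and Tnnc1 -1.36 ± 1.18, 0.01 ± 0.58, -0.69 ± 2.50 and -1.77 ± 1.40 in that order. Tpm2, the beta tropomyosin, had the smallest spread of the group (SD 0.85, range 9.12-fold), and Tnnc1 the largest (SD 1.60, range 90.6-fold, from 2 to 215 reads). The fast troponins exceeded their slow partners for troponin T, where Tnnt3 was above Tnnt1 in 20 of 20 libraries by a median of 2.25 in log2 RPKM, and for troponin C, where Tnnc2 was above Tnnc1 in 19 of 20 by a median of 2.73. For troponin I the fast form Tnni2 was above the slow form Tnni1 in 5 of 20 libraries, with a median difference of -0.74. Thus the fast form was the more abundant for 2 of these 3 subunits. Tnnc1 overlaps Nisch, and Tnnc2 overlaps Ube2c, both on the other strand. The sources do not state whether counting used strand, so values of genes with an overlap on the other strand, Tnnc1 and Tnnc2 among them, are uncertain.

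Among thick filament genes, the developmental heavy chains Myh3 and Myh8 were above the filter, the slow chain Myh7 and the embryonic light chain Myl4 were below it, and adult fast chains had few reads. Mylpf (ENSMUSG00000030672), the fast regulatory light chain, led the group, with log2 RPKM from 1.26 in lumbar M8 to 7.40 in lumbar F8 and a median read number of 287. Myh3, the embryonic heavy chain, had 76 to 7457 reads, and Myh8, the neonatal heavy chain, had 147 to 7289. Myh7, the slow heavy chain, had 3 to 731 reads and lay below Myh3 in 20 of 20 libraries, with a median difference of -4.16 in log2 RPKM. Mean log2 RPKM was 3.20 ± 1.29, 3.39 ± 1.32, 4.54 ± 2.15 and 3.22 ± 1.08 for Mylpf in lumbar males, sacral males, lumbar females and sacral females (SD, n = 5). For Myh3 it was 1.88 ± 1.11, 2.39 ± 2.07, 3.02 ± 1.43 and 1.33 ± 1.93, and for Myh7 -1.83 ± 1.44, -2.24 ± 2.17, -1.02 ± 1.55 and -2.80 ± 2.07. In each of the 3 the lumbar female mean was the highest, within overlapping ranges. Of the adult fast chains, which were listed beside the members, Myh2 reached at most 84 reads, Myh1 42 and Myh4 9. Levels between these genes are compared per length. Only uniquely mapped reads were counted in these closely related genes, so their levels are uncertain.

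The Z disc and scaffold genes were led by Ttn (ENSMUSG00000051747), which encodes titin and lies at chr2:76542037-76820604 (mm9, minus strand). It took between 1092 and 71545 reads. Its log2 RPKM was 1.04, 2.64, 0.98, 1.57 and 0.92 in lumbar males M1, M3, M5, M7 and M8 and 1.19, 1.98, 1.21, 4.48 and -1.11 in their sacral libraries. In females F3, F7, F8, F9 and F10 it was 3.57, 2.09, 3.13, 0.25 and 1.08 in lumbar and 1.98, 1.68, 1.36, -1.44 and -1.23 in sacral ganglia. Sacral M7 was the highest library for titin and not lumbar F8, and sacral M8, F9 and F10 were the 3 lowest. Gm13938, a transcript on the other strand within the titin locus, had r = 0.89 with the mean of the 24 genes over the 20 libraries. Strand use in counting is not stated, so reads of titin and Gm13938 may not be told apart, and this r is uncertain.

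In the other roles, Ckm, the muscle creatine kinase, averaged 2.38 ± 0.51 in lumbar males, 2.60 ± 1.39 in sacral males, 3.47 ± 1.65 in lumbar females and 2.07 ± 1.14 in sacral females (log2 RPKM, SD, n = 5). Atp2a1, the calcium pump of fast fibres, averaged 0.80 ± 0.55, 1.20 ± 1.56, 1.81 ± 1.46 and 0.58 ± 0.85 in the same order. Both thus had their highest mean in lumbar females, with a spread inside that group larger than the gaps between the means. Casq2 and Casq1, which store calcium in the reticulum, differed by a median of 0.82 in favour of Casq2, the form of slow and cardiac muscle. Casq2 itself averaged 0.72 ± 0.92, 1.06 ± 1.37, 1.51 ± 1.59 and -0.55 ± 1.76 in the same order. The calcium release channel Ryr1 and the voltage sensor Cacna1s did not pass the filter, with 45 to 342 and 3 to 152 reads.

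The receptor subunits and myogenic factors were close to the limit of detection. Chrna1, the alpha subunit, had 6 to 166 reads. The delta subunit Chrnd had 0 reads in 4 lumbar libraries and 1 sacral library and 227 in lumbar F8, and the fetal subunit Chrng had 0 to 44. Lumbar F8, the deepest library, held the most reads of each of these subunits, while in log2 RPKM the highest library was sacral M7 for Chrna1 and Chrng and lumbar F8 for Chrnd. Among the factors that commit cells to muscle, Myog had 0 to 44 reads, Myod1 0 to 39, Myf5 0 to 33 and Myf6 0 to 50, with blanks in 3, 3, 8 and 7 of 20 libraries. Of the genes below the filter with a value in every library, Ryr1, Actn3 and Mybpc2 had the smallest spread, with SDs over 20 libraries of 0.83, 0.78 and 0.67 on the log2 scale. Actn3, the alpha actinin of fast fibres, had 13 to 153 reads, and Mybpc2, the fast myosin-binding protein, 3 to 35. At such counts a blank is not evidence of absence, since a count of 0 allows up to 3 reads.

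Likeness to the rest of the module was measured as Pearson r between each gene and the mean log2 RPKM of the other tested members over the 20 libraries, as a description with no test. All libraries of a donor share an embryo, and 3 libraries spread the scale. Ckm had r = 0.97, Mybpc1 0.97, Ldb3 0.96, Atp2a1 0.96, Actn2 0.96 and Acta1 0.95, and without the 3 highest libraries these were 0.92, 0.95, 0.92, 0.92, 0.90 and 0.87. Mybph (ENSMUSG00000042451, chr1:136090025-136097808 mm9, plus strand) stood apart at r = 0.049, with the smallest spread of the 24 genes (SD 0.57). Its log2 RPKM was 0.74, 0.85, -0.32, 1.11 and 1.32 in lumbar males M1, M3, M5, M7 and M8, 1.30, 0.34, 0.87, 1.89 and 0.65 in sacral males, 1.42, -0.19, 0.36, 0.57 and 1.19 in lumbar females F3, F7, F8, F9 and F10, and 1.40, 0.36, 1.23, 0.63 and 1.45 in sacral females. Lumbar F8, which was the highest library for most sarcomere genes, was thus among the low ones for Mybph. Mybph encodes a myosin-binding protein, and its locus overlaps Adora1, an adenosine receptor gene at a mean log2 RPKM of 1.50, on the other strand. With strand use in counting not stated, the Mybph values and their likeness to the module are uncertain. Among genes below the filter, Trim63, a ubiquitin ligase of muscle turnover, had r = 0.064, Mybpc2 0.10, Myog 0.36 and Myod1 0.38.

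The tested genes outside the list that were most like the module were, in order, Actc1, Myom1, Klhl31, Apobec2, Hrc, Eno3, Atp1b4, Gm13938, Kbtbd10 and Smyd1, with r from 0.96 to 0.88 over 20 libraries, and from 0.92 to 0.72 without the 3 highest. Gm13938 overlaps titin on the other strand, so its place in this order is uncertain. Of 14504 genes compared, 19 reached r = 0.8. Actc1, the cardiac actin that fetal skeletal muscle also uses, ran from 3.59 to 7.86 in log2 RPKM and, per length, exceeded Acta1 on average (5.10 against 4.58). Reads that fit both actins were not counted, so that comparison is uncertain.

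Promoters are shown for 4 genes that moved together and for Mybph, whose values did not but are uncertain because its locus overlaps Adora1. The lines below give the 200 bases before the annotated start, 5′ to 3′ on the strand of the gene, from RefSeq (GRCm38.p6). Capitals mark an E-box (CANNTG), a MEF2 motif or a CArG box, the sites read by myogenic bHLH factors, MEF2 proteins and serum response factor. Each motif reads the same on both strands, and no matches overlap in these stretches. Acta1 lies at chr8:123894776-123894975 (minus), Mylpf at chr7:127211408-127211607 (plus), Myh8 at chr11:67276924-67277123 (plus), Ttn at chr2:76982548-76982747 (minus) and Mybph at chr1:134193248-134193447 (plus).
Acta1: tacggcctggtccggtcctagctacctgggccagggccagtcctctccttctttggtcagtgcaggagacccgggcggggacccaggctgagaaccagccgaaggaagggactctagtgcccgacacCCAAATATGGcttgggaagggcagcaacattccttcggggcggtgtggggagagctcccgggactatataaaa
Mylpf: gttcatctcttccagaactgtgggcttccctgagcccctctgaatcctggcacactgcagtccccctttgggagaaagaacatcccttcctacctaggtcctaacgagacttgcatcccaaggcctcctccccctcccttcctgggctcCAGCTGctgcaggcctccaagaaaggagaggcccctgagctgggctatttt
Myh8: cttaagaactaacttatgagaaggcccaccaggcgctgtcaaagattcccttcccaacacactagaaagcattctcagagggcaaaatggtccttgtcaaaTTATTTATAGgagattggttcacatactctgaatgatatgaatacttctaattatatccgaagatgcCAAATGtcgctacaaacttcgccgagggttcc
Ttn: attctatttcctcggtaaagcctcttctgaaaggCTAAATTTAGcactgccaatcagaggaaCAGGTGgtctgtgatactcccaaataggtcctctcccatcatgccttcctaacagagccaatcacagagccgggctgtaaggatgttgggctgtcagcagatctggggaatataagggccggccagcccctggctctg
Mybph: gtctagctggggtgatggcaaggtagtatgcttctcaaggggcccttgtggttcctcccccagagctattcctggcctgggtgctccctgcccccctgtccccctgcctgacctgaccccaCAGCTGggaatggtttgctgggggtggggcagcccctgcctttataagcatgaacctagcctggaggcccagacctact

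Acta1 carried a CArG box that began 73 bases before the start. Mylpf and Mybph each carried the E-box CAGCTG. Mybph thus held the same letters as a gene inside the shared pattern, while its own place outside that pattern is uncertain. Myh8 and Ttn each carried a MEF2 motif, 99 and 166 bases before the start. RefSeq windows of 300 bases (250 before and 50 after the start) matched 32 of the 40 members. Among these, 27 held an E-box (84.4%), against 75.0% of 27025 genes in the table. A MEF2 motif was in 3 of the 32, Casq2, Myh8 and Ttn (9.38% against 3.70%), and a CArG box in 2, Acta1 and Ldb3 (6.25% against 1.81%). A match in these letters is not a shown binding site. Neb, Chrnd, Myod1, Tnni2, Cacng1, Myf6, Actn3 and Tnnt3 were not matched.

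No muscle gene passed the test between spinal levels. Of the 24 tested, 0 were called at an adjusted p up to 0.05 by limma (Benjamini-Hochberg over 14529 genes, donor as block), against 6.73% of all genes tested, of which 392 were higher and 586 lower in sacral ganglia. Only Myh8 had an unadjusted p under 0.05, and adjusted p ran from 0.13 to 0.97. The estimates were lower in sacral ganglia for 21 of the 24, with a median of -0.34 on the log2 scale, while 58.0% of all genes were lower, with a median of -0.048. The standard error had a median of 0.39 for the 24 genes and 0.13 for all genes, so differences of the size seen could not be told from 0. Scaled to total reads, 480 of 628 calls over all genes were higher in sacral ganglia, and after quantile normalization 437 of 847, with 0 members called under both.

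**Figure D3:**
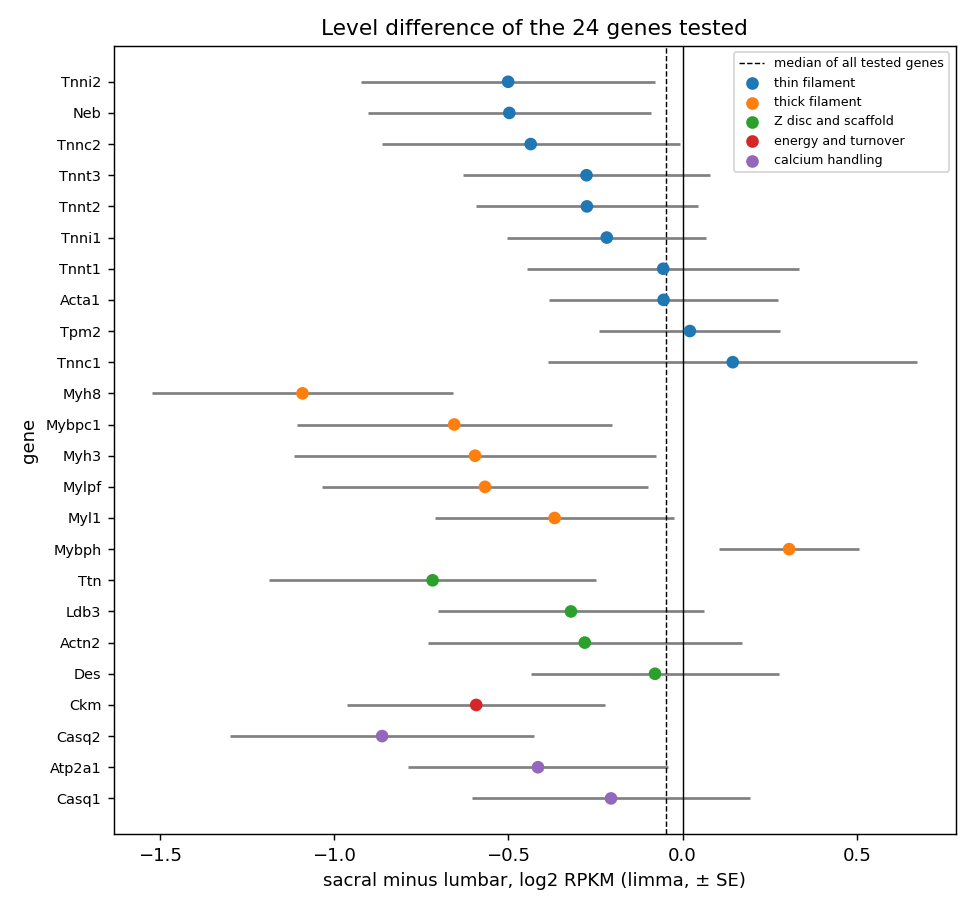
Points give the sacral minus lumbar difference in log2 RPKM from limma for the 24 tested genes, with bars of 1 SE, coloured by role, and the dashed line marks the median of all 14529 genes tested. Myh8 lies farthest left at -1.09, and Mybph, Tnnc1 and Tpm2 lie right of 0.

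By role, 8 of 10 thin filament genes, 5 of 6 thick filament genes, 4 of 4 Z disc genes, 1 of 1 energy gene and 3 of 3 calcium handling genes had estimates below 0, none of them called. Thin filament estimates lay between -0.50 and 0.14, and for Acta1 the difference was -0.055 ± 0.33 (SE), with the sacral library higher in 5 of 10 donors. For Acta1 and Tpm2 (0.021 ± 0.26) the sign changed with the scaling of libraries or the weights given to them, and for Tnnc1 (0.14 ± 0.53) with the pseudocount and the scaling. The largest differences after Myh8 were those of Casq2 (-0.86 ± 0.44) and Ttn (-0.72 ± 0.47), each lower on the sacral side in 7 of 10 donors. Mybph, whose values are uncertain because its locus overlaps Adora1, had the largest difference in the other direction (0.31 ± 0.20). It was higher in sacral ganglia in 7 of 10.

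Donors went opposite ways. In M7 all 24 genes were higher in the sacral library, by a mean of 2.35 in log2 RPKM, and in M5 20 of 24 were (mean 0.40). In F3 0 of 24 were higher there (mean -1.63), and in F7, F8 and F10 only 1 each (means -0.57, -1.91 and -1.07). In M3 2 of 24 were higher (mean -0.55) and in M8 6 (mean -0.48), while M1 with 14 (mean 0.045) and F9 with 13 (mean -0.16) were divided. The paired difference had an SD over 10 donors with a median of 1.35 for the 24 genes and 0.40 for all genes tested. The 24 genes of a donor share the same pair of dissections and are not replicates.

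**Figure D4:**
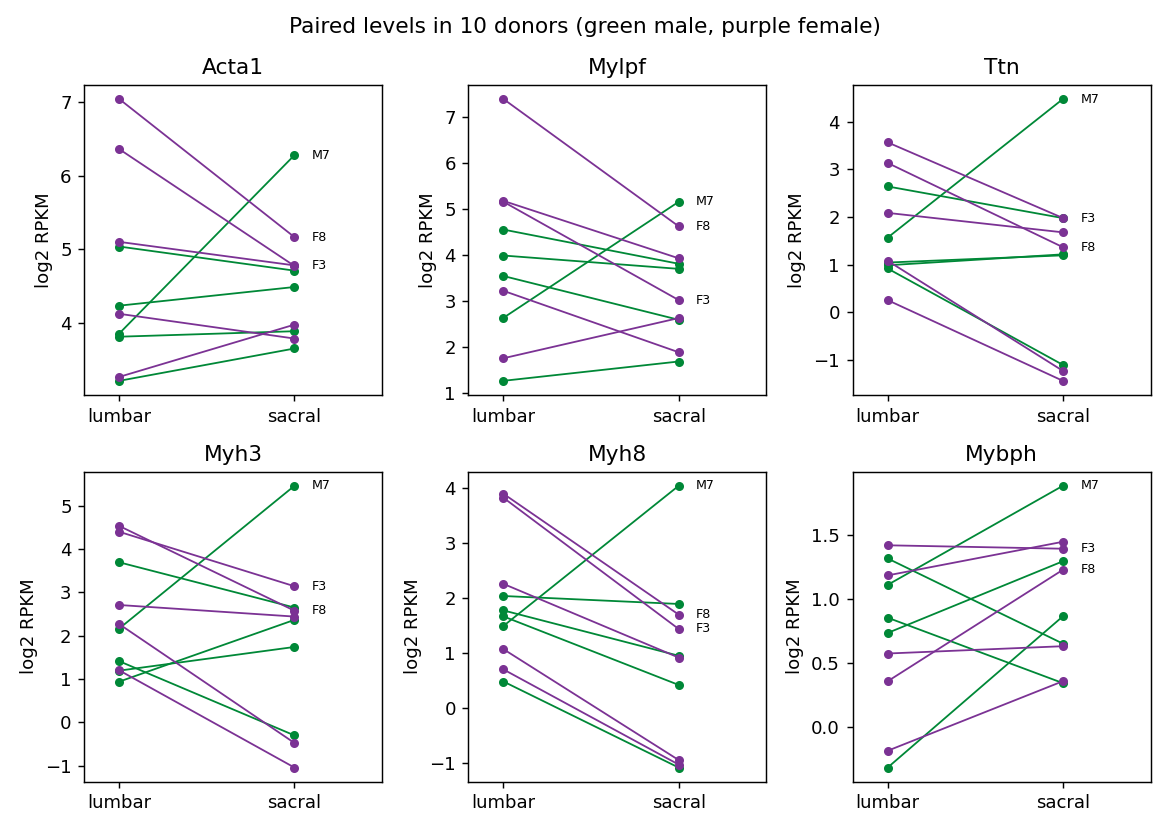
Each line joins the lumbar and the sacral log2 RPKM of 1 donor (green male, purple female) for 6 genes, with donors M7, F8 and F3 named at the sacral end. In Acta1 the lines cross, whereas in Myh8 the lines of 9 of 10 donors fall and that of M7 rises, and Mybph covers a narrow range.

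Myh8 (ENSMUSG00000055775, chr11:67090626-67122136 mm9, plus strand) came nearest to a level difference. In lumbar males M1, M3, M5, M7 and M8 its log2 RPKM was 1.67, 2.04, 1.78, 1.50 and 0.48, and in their sacral libraries 0.42, 1.90, 0.95, 4.05 and -1.08. In females F3, F7, F8, F9 and F10 it was 3.83, 2.26, 3.90, 0.71 and 1.07 in lumbar and 1.44, 0.92, 1.70, -1.03 and -0.94 in sacral ganglia. The sacral library was lower in 9 of 10 donors, and donor M7 alone went the other way, by 2.55. The difference was -1.09 ± 0.43 (SE; limma adjusted p = 0.13), with an adjusted p between 0.014 and 0.38 over the alternatives tried. Myh8 was called without donor M7 (-1.44 ± 0.36, adjusted p = 0.026), when 5.06% of all genes were called, and without donors M7, F3 and F8 (-1.32 ± 0.30, adjusted p = 0.014), when 10.9% were. It was the only member of the muscle list called in either. Leaving out M7 removes the only donor that went the other way. Donors M7, F3 and F8 were left out together because they held the 3 libraries highest in muscle RNA. That choice was made after the data were seen, so neither call is independent support for a level difference. Myh8 was also read relative to actin within a library. Acta1 itself differed little between levels (-0.055 ± 0.33, SE), so this measure largely repeats the Myh8 values and is not separate support. Myh8 minus Acta1 averaged -2.68 ± 0.33 in lumbar and -3.72 ± 0.89 in sacral libraries (log2 RPKM, SD, n = 10), and was lower on the sacral side in 8 of 10 donors. For the embryonic Myh3 minus Acta1 the means were -2.15 ± 0.54 and -2.69 ± 1.33, lower in 5 of 10. Myh8 minus Myh3 averaged -0.53 ± 0.72 in lumbar and -1.02 ± 0.61 in sacral libraries, lower on the sacral side in 6 of 10 donors. Ttn minus Acta1 and Mylpf minus Acta1 were each lower there in 7 of 10. These relative measures were chosen after the values were seen and were not tested.

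Of 62 other muscle genes listed beside the members, 63 identifiers were found, 22 were tested, and 1 was called between levels, where 6.73% of all genes were called, so the list did not stand out by its number of calls. The gene called was Mstn, which encodes myostatin, a secreted inhibitor of muscle growth. Its log2 RPKM averaged 0.37 ± 0.63 in lumbar and -0.93 ± 0.56 in sacral libraries (SD, n = 10), a difference of -1.30 ± 0.25 (SE; limma adjusted p = 0.0042) that was lower in sacral ganglia in 9 of 10 donors. It kept an adjusted p between 0.0018 and 0.031 over the alternatives in which it was tested. Its highest library was lumbar M7, not one of the 3 richest in muscle RNA. In the same list the most abundant genes were Actc1, Mef2c, Pfkm, Eno3 and Srl, and their level differences were -0.019, -0.034, -0.10, -0.48 and -0.44, with adjusted p of 0.98, 0.84, 0.70, 0.29 and 0.14.

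Markers of neighbouring tissues were read in the same libraries. Over all genes tested, 6.73% were called between levels, 392 of them higher and 586 lower in sacral ganglia. Of 8 tested tendon and connective tissue genes, 4 passed the test, each higher in sacral ganglia, namely Col1a1 (0.72 ± 0.17), Col1a2 (0.51 ± 0.14), Fmod (0.86 ± 0.19) and Pdgfra (0.62 ± 0.14), as was 1 of 5 cartilage genes, Col2a1 (0.80 ± 0.16; limma adjusted p from 0.0055 to 0.033). Of the connective tissue genes that did not pass, Thbs4 had an estimate below 0 (-0.63 ± 0.22, limma adjusted p = 0.087). Estimates of the tested members mostly lay below 0, with none called, where 58.0% of all genes tested were also lower in sacral ganglia. All 12 tested genes of a sensory neuron list and all 10 of a glial list had estimates below 0 too. The summed level of the connective tissue list ran from 208 to 483 RPKM in lumbar and from 296 to 663 RPKM in sacral libraries, with 483, 320 and 372 RPKM in lumbar F8, lumbar F3 and sacral M7. Smooth muscle genes summed to 26.1, 13.5 and 33.7 RPKM in these 3 libraries, against a median of 13.4, and 0 of 5 tested were called. Heart muscle genes were near 0, with at most 72 reads of Myh6, 28 of Myl7 and 4 of Mybpc3 in any library, and none passed the filter. Of the 12 tested genes of the sensory neuron list 2 were called, both lower in sacral ganglia (Nefm -1.14 ± 0.21 and Nefl -0.90 ± 0.18). Of the 10 tested genes of the glial list 4 were called, also lower there, among them S100b (-0.67 ± 0.11), Mbp (-0.58 ± 0.079) and Fabp7 (-0.40 ± 0.11). In the motor neuron and spinal cord list the choline transporter Slc5a7, the only gene tested, was called higher in sacral ganglia (1.05 ± 0.18). Chat and Mnx1 had at most 4 and 2 reads. Among 4 brown fat genes 1 was tested and 0 called. The part of these tissues in the muscle values was not tested.

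Females and males were set against each other at either level. In lumbar ganglia 23 of the 24 muscle genes had a higher mean in females, with a median difference of 1.03 on the log2 scale and a range from -0.070 to 1.45, and 0 were called (limma adjusted p from 0.47), where 0.33% of all genes were called. Unadjusted, 4 had a p under 0.05, against 8.28% of all genes. Casq1 passed the filter only through lumbar females, so its sign here was partly set by the filter. With at least 1 RPKM required in each group, 1 of 17 identifiers was lower in lumbar females. In sacral ganglia the median was -0.27, and 0 were called where 1.01% of all genes were. Female lumbar libraries held both F8 and F3, and the sacral male ones held M7. Without donors M7, F3 and F8, the medians over the 21 muscle identifiers then tested were 0.089 in lumbar and -0.13 in sacral ganglia. The change between levels in females, less the same change in males, had a median of -1.49, with 0 muscle genes called where 0% of all genes were (0 of 14529). Unadjusted, 7 of the 24 had a p under 0.05, against 3.23% of all genes (470). Of the 24 estimates 23 were below 0, where the median over all genes was -0.068. Tnnc1 passed the filter only through sacral males (0.01) and Casq1 only through lumbar females (0.65). High values in these groups lower the estimate, so the sign of such genes was partly set by the filter. With at least 1 RPKM required in each group, 16 of 17 identifiers were below 0 and 4 had an unadjusted p under 0.05. With both Tnnc1 entries counted, 8 of 25 had such a p. With a single donor left out, that number was 1 without M5, M7, F3 or F8, and between 4 and 15 without any other donor. Without M5 or M7, 23 identifiers were tested. The number was 3 with the mitochondrial rRNA share as covariate, and 0 without the donor block or with sample weights. It was 17 with donor as a fixed term or when scaled to total reads. The median of the muscle estimates was -0.40 without donors M7, F3 and F8.

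The 3 libraries richest in muscle RNA did not hold the same mix of transcripts. Against lumbar F8, sacral M7 differed by -2.24 in log2 RPKM for Mylpf, -2.21 for Tnni2 and -1.76 for Tnnc2, but was higher by 1.34 for Ttn, 1.07 for Neb and 0.93 for Myh3. Across the 24 genes the difference rose with the logarithm of exon length (Pearson r = 0.70, Spearman rho = 0.74). The 6 genes of at least 4000 bases had a median difference of 0.54, and the 18 shorter ones of -0.88. Lumbar F3 minus lumbar F8 had r = 0.60 with length (Spearman rho = 0.67). Over the 14437 other genes with a length, the same relation was r = 0.37 for sacral M7 and r = 0.31 for lumbar F3. Spearman rho was 0.37 for sacral M7 and 0.20 for lumbar F3. The medians at 4000 bases or more and below were 0.25 and -0.22 for sacral M7, and 0.16 and -0.011 for lumbar F3. Genes of 1 library are not independent replicates, and these are descriptions. The mitochondrial rRNA share was 43.2% in lumbar F8, 23.2% in lumbar F3 and 28.4% in sacral M7, and its part in the length relation was not tested.

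**Figure D5:**
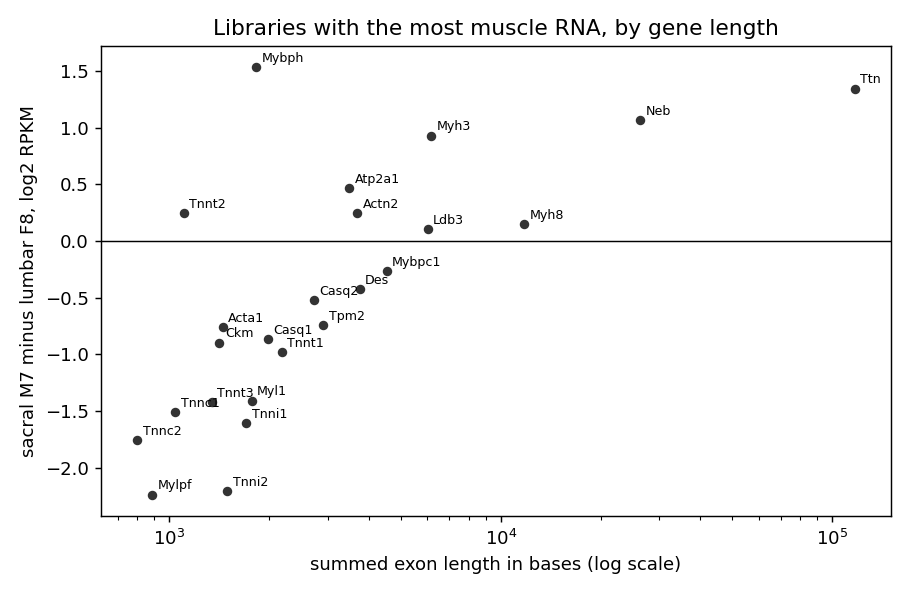
Points are the 24 tested genes, with summed exon length in bases on a log axis against sacral M7 minus lumbar F8 in log2 RPKM. Short genes such as Mylpf (-2.24) and Tnni2 (-2.21) lie below 0, long ones such as Ttn (1.34) and Neb (1.07) lie above, and Mybph (1.53) lies off the trend.

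Acta1 was also set against the mitochondrial rRNA share within each level. In the 10 lumbar libraries Pearson r was 0.25 (permutation p = 0.49, adjusted p = 0.67) and Spearman rho was 0.48 (permutation p = 0.17, adjusted p = 0.33). At the sacral level (10 libraries) r was -0.16 (permutation p = 0.67, adjusted p = 0.67) and rho was -0.091 (permutation p = 0.81, adjusted p = 0.81). Without the 2 libraries farthest from the median share, r was 0.55 in lumbar and -0.099 in sacral ganglia. No relation was detectable at this number of libraries.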

How the data were processed

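Total RNA of whole DRG was amplified (Ovation RNA-Seq v2), and Nextera XT libraries were sequenced on a HiSeq2500. The authors aligned reads to mm9 with Subread, counted unique reads per Ensembl gene, scaled them by TMM and deposited log2 RPKM values, and per the submitters' processing notes limma 3.26.9 was used. These deposited log2 values were analysed as they stand. Exon lengths came from GENCODE M1 (mm9), which held 37205 of 37620 identifiers. With these lengths 98.3% of values were whole reads (within 0.05 of a read), and read numbers and depths given here are those recovered reads. Blanks were set to the log2 RPKM of 0.5 reads.

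Genes with a group mean of at least 1 RPKM, averaged on the log2 scale, in at least 1 group were tested with limma 3.58.1 (R 4.3.3, eBayes with trend, two-sided) on all 20 libraries, with 4 group means and donor as block. Same-numbered libraries come from the same embryo, and the consensus correlation within donors was 0.34. On simulated data the fit was checked to recover changes of known size. Libraries were replicates where the labels name separate embryos. Groups were taken from the labels.

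Values are given for the most abundant member of each role, for members with the 5 largest and 5 smallest SDs among those with a value in all 20 libraries, for the 3 largest and 3 smallest level differences, and for others as counts and ranges. Genes outside the list were the 10 most like the module, the 5 most abundant of the other muscle genes and any listed gene called between levels. The members, lists and tests were chosen with earlier results of these data known. Alternatives covered the block, pseudocount, filter, blanks, scaling, weights, voom on recovered reads, the mitochondrial rRNA share and each donor left out. A filter on the arithmetic mean RPKM and leaving out donors M7, F3 and F8 together were added after seeing the data. Protein sequences were not used here. One listed gene outside the muscle genes is not reported here.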

Additional observations from a re-analysis of the deposited data

Results flagged for a closer look

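In groups of 5 libraries, a value was singled out when its gap to the nearest other exceeded 0.71 of the group's range. Over 72 such groups (17 muscle genes and the summed level, in 4 groups each) 2 values met this. Chance alone gives about 1 in 20, so 2 of 72 is no excess. The genes were read in log2 RPKM and the summed level in linear RPKM, where high values stand out more. The summed level of the muscle genes in sacral M7, 389 RPKM, lay above the other 4 sacral male libraries, which ran from 39.2 to 109 RPKM. No single gene was flagged in sacral M7. Chrna1, the alpha subunit of the endplate receptor, was at a log2 RPKM of -4.08 in sacral F7, from 6 reads, while the other 4 sacral female libraries lay between -1.68 and -0.84. The cause of either was not tested.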

How the results depend on the processing

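The number of genes called between levels over the whole table depended on the donor pairing and on other choices. With the donor block 978 genes were called, and without the block 154, and in neither was a member of the muscle list called. Among the other alternatives 509 genes were called with no filter, 2998 with sample weights, 628 when scaled to total reads, 1634 without donors M7, F3 and F8, and 404 to 1608 with a single donor left out. By voom on recovered reads 1012 genes were called, and 0 members. The count of members called between levels stayed at 0, except for 1 (Myh8) without donor M7 and 1 (Myh8) without donors M7, F3 and F8, and single donors left out gave 0 to 1. It was 0 for the sexes in lumbar and in sacral ganglia and for the difference between the sexes under all alternatives run. The fit with donor as a fixed term gives no value between the sexes within a level. Of 259 values of the 11 named muscle genes tested, 242 kept their direction and their side of the threshold, 15 changed sign and 2 became called. Acta1 became 0.014 when scaled to total reads, 0.054 after quantile normalization and 0.064 without donors M7, F3 and F8, and lay between -0.29 and 0.095 with a donor left out. Tnnc1 became -0.056 on log2(RPKM + 1) and -0.26 after quantile normalization, and lay between -0.17 and 0.40 with a donor left out. Tpm2 became -0.054 with sample weights, and lay between -0.14 and 0.13. The cause was not tested. In 20 of the 24 genes most donors had the lower value on the sacral side, and 20 to 23 with a donor left out. The correlation of Acta1 with the mitochondrial rRNA share lay between 0.10 and 0.47 in lumbar and between -0.28 and -0.042 in sacral ganglia. Reads of receptor and myogenic factor genes, mostly under 50 a library, limit any statement on them.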
